A study of Mus musculus with 46 samples.

Results

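Reads from the CAST allele were set against reads from the C57 allele of the same autosomal gene in 14 female F1 hybrids at P15, in RNA of the dorsal raphe nucleus. The dorsal raphe is a brainstem nucleus that holds many of the serotonin neurons that project to the forebrain. The animals came from 2 crosses of C57 and CAST parents, 7 named F1i and 7 named F1r, and all carried 1 allele of each strain with no treatment or engineered mutation named. Which strain was the mother of each cross is not given in the sources used here. The series also holds 14 samples at P5 and 18 of adults, all female, which were used only to set the P15 ratios beside another age. Of 15499 genes counted in each age's table, 11996 had a mean of 20 or more reads per animal at P15, both alleles added, and 11362 of those were placed on an autosome. These 11362 genes are described here.

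In an F1 hybrid both alleles of a gene sit in the same nuclei and meet the same transcription factors and hormones. A gene whose alleles differ in RNA level in such an animal is said to differ in cis, which covers differences in promoters, enhancers, splicing and transcript stability. CAST mice descend from the subspecies Mus musculus castaneus and C57 mice from a mostly Mus musculus domesticus background, so their genomes differ at many positions, and short reads can be assigned to an allele only where they overlap such a position. In whole tissue, fewer cells of a type and less RNA per cell cannot be told apart.

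Libraries held 3692778 to 8032987 allele-assigned reads at P15. Serotonin neuron genes were read at unlike levels. The median over animals was 564 CPM (reads scaled to a common library total) for Tph2, the serotonin-synthesising hydroxylase of the brain. It was 270 for the transporter gene Slc6a4, 40.8 for Fev and 3.69 for Lmx1b, and Slc18a2 had no value. The cerebellar genes Pcp2 and Cbln3 were both at a median of 0.362 CPM, and the forebrain gene Neurod6 was at 0.967. Ttr, a choroid plexus gene, ranged over animals between 2.03 and 159 CPM. Oligodendrocyte RNA was abundant, with Mbp at a median of 7504 CPM.

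Genes were split by how far their sequence is shared with other genes, because a read of 50 bases from a shared stretch can be placed at a wrong copy. A gene was called multi-copy where 20% or more of the 25-base words of its longest annotated transcript also occur in a transcript of a gene elsewhere, and 421 genes met this. A further 61 were annotated pseudogenes or carried a pseudogene symbol. The other 10880 genes are called single-copy below. At the count limit of 20, Nectin4, 4930473A02Rik and Camk2n1 lay just inside with a mean of 20 reads per animal, and Cxcr4, Ada and Wdr93 just outside with 19.93.

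A pair of coding stretches shows what a shared copy means for these counts. The longest annotated coding sequence of Rps19, a protein of the small ribosomal subunit encoded on chromosome 7, has a run of 266 bases that also stands letter for letter in the transcript of the pseudogene Rps19-ps6 on chromosome 12. Gapdh, a glycolytic enzyme encoded on chromosome 6, shares a run of 1017 of its 1077 coding bases with the pseudogene Gm7336 on chromosome 7. The first 90 bases of each run, from the GENCODE M21 transcripts, are as follows.
Rps19: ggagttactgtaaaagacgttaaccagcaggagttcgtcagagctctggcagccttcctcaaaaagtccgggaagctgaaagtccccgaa
Gapdh: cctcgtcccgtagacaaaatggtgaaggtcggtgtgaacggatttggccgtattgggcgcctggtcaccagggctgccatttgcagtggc

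Any 50-base read inside these stretches matches the gene and its copy equally well in the reference, and how the authors treated such reads is not given in the sources used here.

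Among single-copy genes the alleles were balanced as a whole and unequal gene by gene. CAST alleles held between 49.95% and 50.06% of single-copy autosomal reads in the 7 F1i animals and between 49.82% and 49.96% in the 7 F1r animals. The edgeR quasi-likelihood test with Benjamini-Hochberg adjustment over all 11996 genes called 6131 of 10880 single-copy genes at an adjusted p of 0.05, which is 56.4%. CAST was higher in 3038 of them (27.9% of the genes) and C57 in 3093 (28.4%), and the median log2 CAST over C57 ratio was -0.002. Differences were mostly small, with a median size of 0.27 on the log2 scale among called genes. A size of 0.25 or more was reached by 3299 called genes, 0.5 by 1251, 1 by 285 (2.62%) and 2 by 62. Of the 285 genes that differed by 1 log2 unit or more, CAST was higher in 153 and C57 in 132. Over all 11362 autosomal genes 6490 were called (57.1%), CAST higher in 3270 (28.8%) and C57 in 3220 (28.3%), and 421 differed by 1 log2 unit or more (3.71%). In 2237 called single-copy genes all 14 animals lay on the same side of an equal share.

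Read depth set how small a difference could be called. Among 1512 single-copy genes with 20 to 50 reads per animal, 41.7% were called, with a median size of 0.56 and a median standard error of 0.136. Of 1001 genes with 1000 reads or more, 76.6% were called, with a median size of 0.14 and a median standard error of 0.022. Equality could be shown to a narrow limit for few genes: the 95% interval of the log2 ratio lay within 0.1 of 0 for 729 single-copy genes (6.70%), and 72 of these were also called.

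**Figure D1:**
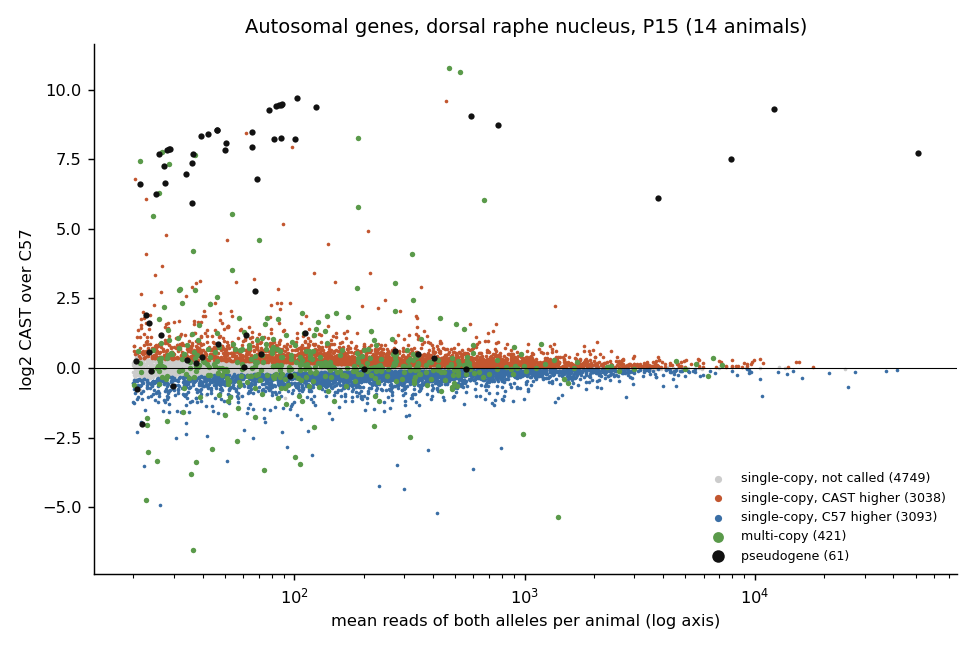
Each point is an autosomal gene at P15, placed by its mean number of reads per animal (both alleles, log axis) and its log2 CAST over C57 ratio, fitted over 14 animals. Called single-copy genes spread to both sides of 0, and the black pseudogenes lie mostly far above it.

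The single-copy genes with the largest CAST excess included immune genes. C3, the central complement protein that tags targets for removal by phagocytes, had 134, 191.5 and 352 CAST reads (lowest, median and highest of 14 animals), against 2, 7.0 and 11 C57 reads. Its CAST share ran between 92.4% and 99.1%, and the log2 ratio was 4.91 ± 0.09 (SE, edgeR adjusted p = 1.25e-39). Each SE given here is derived from the F statistic of the test. For genes as unequal as C3, with few reads of an allele, it can be smaller than counting error alone. H2-Ab1, the beta chain of the class II antigen-presenting molecule I-A, had 138, 184.0 and 287 CAST reads, against 11, 17.0 and 34 C57 reads. No animal's CAST share of H2-Ab1 was under 87.1%, and its log2 ratio was 3.42 ± 0.08. Tusc3, a subunit of the complex that attaches N-linked sugars to proteins, had 93, 124.5 and 199 CAST reads, against 2, 5.5 and 10 C57 reads, a log2 ratio of 4.46 ± 0.10. For each of these genes the highest C57 value lay under the lowest CAST value.

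The other CAST-high single-copy genes encode enzymes and structural or regulatory proteins. Retsat, which saturates retinol, had a log2 ratio of 2.44 ± 0.06 and a median CAST share of 83.8%, with no animal under 80.8%. Wdfy1, an endosomal adaptor of Toll-like receptor signalling, was the most read of them, with 770, 1081.5 and 1668 CAST reads, against 133, 228.5 and 349 C57 reads. Its log2 ratio of 2.22 ± 0.03 carried an edgeR adjusted p of 3.38e-48. Cenps, a kinetochore and DNA repair protein, reached 3.11 ± 0.09, and Hddc3, a nucleotide hydrolase, 2.24 ± 0.07. Lama3, a laminin chain of basement membranes, was at 2.17 ± 0.06, Pla2g4e, a cytosolic phospholipase, at 2.04 ± 0.05, and Rsph1, a radial spoke protein of motile cilia, at 1.87 ± 0.05. Plscr2, of the scramblase family, was at 1.87 ± 0.08, and Atg16l2, a relative of an autophagy gene, at 1.81 ± 0.05.

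For 3 other CAST-high genes in the single-copy set, shared sequence or missing C57 reads stand beside the value. Gng5, a G protein gamma subunit, had a log2 ratio of 3.43 ± 0.09, but 78.3% of the words of its coding sequence also occur in another gene. Sfi1, a centrosomal protein, was at 2.91 ± 0.06 with 16.6% shared coding words. Gm10874, which has no coding sequence in the annotation, had 243, 467.5 and 630 CAST reads, against 0, 0.0 and 2 C57 reads, and its CAST share was 99.5% or more in every animal.

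The single-copy genes with the largest C57 excess also included an immune gene. Lbp, which carries bacterial lipopolysaccharide to its receptor, had 3, 11 and 25 CAST reads, against 70, 103.0 and 185 C57 reads. Its CAST share ran between 3.80% and 16.1%, a log2 ratio of -3.11 ± 0.10 (edgeR adjusted p = 6.03e-31). Pttg1, the securin that holds sister chromatids together until anaphase, had 22, 42.5 and 77 CAST reads, against 252, 330.0 and 447 C57 reads, a log2 ratio of -2.93 ± 0.06. The 2 sets of animal values did not overlap for either gene. The uncharacterised genes 4933431E20Rik and 4833420G17Rik stood at -4.35 ± 0.07 and -3.49 ± 0.06, with CAST shares of at most 5.99% and 10.1%.

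Membrane and metabolic genes followed. Cd59a, which blocks the final pore-forming step of complement, had a log2 ratio of -1.82 ± 0.07 with CAST shares between 14.4% and 27.3%. A2ml1, a protease inhibitor of the macroglobulin family, was at -1.82 ± 0.08. Slc5a5, the sodium and iodide symporter known from the thyroid, had 44, 73.5 and 107 CAST reads, against 163, 221.5 and 361 C57 reads, and a log2 ratio of -1.67 ± 0.05. Arntl2, a partner of CLOCK in the circadian clock, was at -1.70 ± 0.09, Decr2, a peroxisomal enzyme of fatty acid breakdown, at -1.63 ± 0.07, Uros, of haem synthesis, at -1.55 ± 0.05, and Gm10382 at -1.71 ± 0.08. A further 4 C57-high genes of the single-copy set have coding sequences with many words shared: Rps19 at -5.21 ± 0.07 (58.3% shared), Fabp5, a fatty acid binding protein, at -3.64 ± 0.05 (87.1%), Rps15a, a ribosomal protein, at -2.86 ± 0.04 (96.7%) and Acp1, a small phosphatase, at -2.26 ± 0.09 (98.0%).

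**Figure D2:**
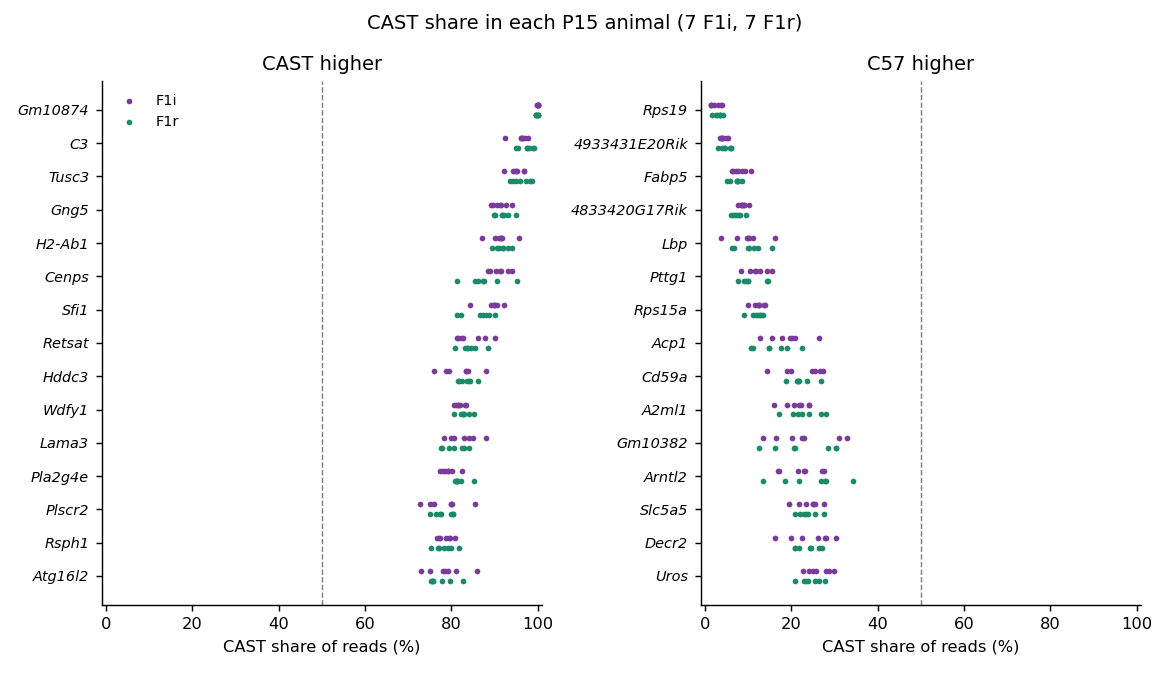
CAST share of allele-assigned reads in each P15 animal (points, 7 F1i and 7 F1r) for the 15 single-copy genes with the largest ratio in each direction. Every animal lies to the same side of the dashed line at 50% for each gene shown, because only such genes were chosen. The 2 crosses overlap.

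The promoters of 3 genes without coding words shared with another gene show the reference sequence next to which such differences are read. They are RefSeq stretches of 300 bases on GRCm38.p6, of 250 bases before and 50 after the annotated start, all on the minus strand: C3 at chr17:57228087-57228386, Gabra2 at chr5:71095800-71096099 and Pttg1 at chr11:43425932-43426231. Capitals mark the TATA box TATAAA, the CCAAT box CCAAT and the GC box GGGCGG, searched on both strands. The positions that differ in CAST are not marked, since no file used here lists them.
C3: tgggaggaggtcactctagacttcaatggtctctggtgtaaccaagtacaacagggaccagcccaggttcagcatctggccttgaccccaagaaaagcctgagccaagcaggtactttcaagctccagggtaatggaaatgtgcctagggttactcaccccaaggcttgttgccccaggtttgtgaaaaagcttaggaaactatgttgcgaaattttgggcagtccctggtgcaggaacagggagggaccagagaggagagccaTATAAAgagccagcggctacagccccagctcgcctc
Gabra2: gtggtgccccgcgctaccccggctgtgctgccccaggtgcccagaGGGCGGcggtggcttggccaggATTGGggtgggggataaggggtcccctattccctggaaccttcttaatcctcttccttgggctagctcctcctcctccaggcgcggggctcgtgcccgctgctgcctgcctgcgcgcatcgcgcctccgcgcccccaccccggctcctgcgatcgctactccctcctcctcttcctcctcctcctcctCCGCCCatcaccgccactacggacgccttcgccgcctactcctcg
Pttg1: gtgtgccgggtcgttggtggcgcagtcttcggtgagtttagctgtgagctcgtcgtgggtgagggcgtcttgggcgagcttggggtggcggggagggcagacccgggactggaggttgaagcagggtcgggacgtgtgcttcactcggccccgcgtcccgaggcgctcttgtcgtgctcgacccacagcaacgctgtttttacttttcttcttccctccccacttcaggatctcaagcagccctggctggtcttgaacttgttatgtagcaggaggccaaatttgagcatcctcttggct

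C3 holds a TATA box, Gabra2 a CCAAT box and 2 GC boxes, and Pttg1 none of these letters in this window. Promoter sequences were found for 205 of the 285 single-copy genes that differed by 1 log2 unit or more, and 13.2% of them hold TATAAA, against 5.29% of 3727 single-copy genes that were not called and 14.2% of all 27025 promoters. GGGCGG stands in 52.7% of the strongly differing genes' promoters, against 66.8% of those not called and 35.9% of all. CCAAT stands in 35.1%, against 37.0% and 37.9%. These shares are descriptions and were not tested.

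The most read single-copy genes outside the imprinted list differed little. Mbp, the main protein of compact myelin, had 13048, 19492.5 and 33405 CAST reads, against 13738, 20500.0 and 35495 C57 reads. CAST shares of Mbp ran between 48.0% and 49.3%, so that all 14 animals lay under 50%, and the log2 ratio was -0.08 ± 0.01 (edgeR adjusted p = 4.06e-09). Sparcl1, a matrix protein of astrocytes that promotes synapse formation, was at -0.12 ± 0.01, and the host transcript Snhg11 at -0.12 ± 0.01. Cpe, the carboxypeptidase that trims neuropeptide precursors, was the only 1 of the 10 most read of these genes not called, at -0.02 ± 0.01 (edgeR adjusted p = 0.0849). Slc1a2, the main astrocyte glutamate transporter, was called at 0.03 ± 0.01 (edgeR adjusted p = 0.0167), with shares between 49.6% and 51.8% that straddle equality, and its call was lost with TMM scaling of each allele column (edgeR adjusted p = 0.0513), with DESeq2 (adjusted p = 0.0585), in each cross alone, with no animal term and without F1i animal 5, at ratios of 0.03 or 0.04. The larger ratios in this group were those of Mobp, a myelin protein, at -0.34 ± 0.01, Cnp, an oligodendrocyte phosphodiesterase, at 0.24 ± 0.01, and Napb, a vesicle fusion factor of neurons, at 0.22 ± 0.01. Ttc3 was at -0.11 ± 0.01, and Zwint at -0.17 ± 0.01, with 36.2% of its coding words shared.

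Serotonergic genes were called in 12 of 17 single-copy members (70.6%), CAST higher in 3 and C57 in 9, with a median log2 ratio of -0.16. Over all single-copy genes 56.4% were called, the share to set beside each list below, and the median was -0.002. Tph2 had 1021, 1310.5 and 2180 CAST reads, against 1068, 1515.0 and 2523 C57 reads, and a log2 ratio of -0.18 ± 0.02 (edgeR adjusted p = 5.94e-13). CAST shares of Tph2 lay between 45.7% and 48.9% in all 14 animals, although the read counts of the 2 alleles overlapped between animals. Ddc, which makes both serotonin and dopamine from their precursors, had CAST shares between 28.3% and 35.1% and a log2 ratio of -1.09 ± 0.02. The ratio of Ddc was -0.95 in F1i and -1.23 in F1r, and this difference passed the parental-effect test. Pts, of the synthesis of the hydroxylases' cofactor tetrahydrobiopterin, was at -0.78 ± 0.05. Htr5b, a serotonin receptor, stood lowest at -1.80 ± 0.11, with 9, 15.5 and 28 CAST reads, against 36, 57 and 82 C57 reads. Slc6a4 itself was called with CAST higher, at 0.16.

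Catecholamine genes were called in 4 of 9 members (44.4%, against 56.4% of all single-copy genes), CAST higher in 2 and C57 in 2. The receptor gene Adra2a was at -0.51 ± 0.06. Th, which makes the dopamine precursor, was at 0.16 ± 0.05 (edgeR adjusted p = 0.00957) and the dopamine transporter gene Slc6a3 at 0.25 ± 0.09 (edgeR adjusted p = 0.0196). Shares on both sides of 50% were seen for Th, between 47.5% and 57.5%, and for Slc6a3, between 37.7% and 65.1%. The ratio of Th was above 0 in 9 of 14 animals, and its call was lost in F1r alone, at 0.14 (edgeR adjusted p = 0.153), with DESeq2 (adjusted p = 0.0549) and with no animal term. The ratio of Slc6a3 was 0.07 in F1i, where it was not called (edgeR adjusted p = 0.682), and 0.43 in F1r, and its call was also lost with DESeq2 (adjusted p = 0.0749), with no animal term and without F1i animal 4, at 0.20.

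Neuropeptide and receptor genes were called in 25 of 39 members (64.1%, against 56.4% of all single-copy genes), CAST higher in 15 and C57 in 10. Trh, the precursor of thyrotropin-releasing hormone, had 131, 200.5 and 265 CAST reads, against 292, 385.5 and 545 C57 reads, a log2 ratio of -0.99 ± 0.04. Pdyn, the precursor of the dynorphin opioids, was at -0.89 ± 0.06, and Chga, a granule protein, at -0.28 ± 0.02. Sst, the somatostatin precursor, was at 0.48 ± 0.05, with CAST shares between 51.0% and 66.3%.

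Receptors for GABA, glycine and glutamate were called in 20 of 38 members (52.6%, against 56.4% of all single-copy genes), CAST higher in 8 and C57 in 12. Of these, 1 differed by 1 log2 unit or more. This was Gabra2, an alpha subunit of the GABA-A receptor whose level is known to differ among laboratory mouse strains. It had 184, 239.0 and 374 CAST reads, against 56, 91.0 and 135 C57 reads, and the sets did not overlap. The log2 ratio of Gabra2 was 1.46 ± 0.05 (edgeR adjusted p = 1.17e-28). Gabrg1, a gamma subunit, was at 0.40 ± 0.03, Grm5, a metabotropic glutamate receptor, at -0.38 ± 0.05 and Gria1, an AMPA receptor subunit, at -0.37 ± 0.04.

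Ion channels and the release machinery showed small ratios. Voltage-gated channel genes were called in 22 of 49 members (44.9%, against 56.4% of all single-copy genes), CAST higher in 10 and C57 in 12, with 0 members at 1 log2 unit. Kcnn2, a calcium-gated potassium channel, was at 0.55 ± 0.06, Cacna1e, a calcium channel, at 0.53 ± 0.05, Kcnd2, of the A-type potassium current, at -0.30 ± 0.03, and Cacnb2, a calcium channel subunit, at -0.21 ± 0.03. Presynaptic release genes were called in 20 of 33 (60.6%), CAST higher in 9 and C57 in 11. Syt5 was at 0.54 ± 0.04, Syt4 at -0.42 ± 0.02, Rab3b at -0.41 ± 0.03 and Cplx1 at 0.20 ± 0.02, all of vesicle fusion or its regulation. Kinesin and dynein genes were called in 15 of 29 (51.7%), CAST higher in 6 and C57 in 9. Kif5c was at 0.27 ± 0.02, Kif3a at 0.14 ± 0.02 and Dync1li1 at -0.45 ± 0.03. Dynll1, with 58.4% of coding words shared and a mean of only 22 reads, was at -1.92 ± 0.20.

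Glial lists had shares called between 77.8% and 90.5%, beside 56.4% over all single-copy genes. The share called rises with depth, and the lists were not matched for depth. The median size of the log2 ratio, called or not, was 0.152 over all single-copy genes. It was 0.167 for the astrocyte list, 0.210 for myelin and oligodendrocyte and 0.397 for microglia and complement. Astrocyte genes were called in 23 of 28 single-copy members (82.1%), CAST higher in 12 and C57 in 11. Clu, the secreted chaperone clusterin, had 798, 1081.5 and 1684 CAST reads, against 438, 649.0 and 1026 C57 reads, a log2 ratio of 0.78 ± 0.02. The metallothionein genes went to opposite sides, with Mt3 at 0.60 ± 0.02 and Mt1 at -0.33 ± 0.02. Aldoc, a glycolytic enzyme of astrocytes, was at -0.22 ± 0.01. Myelin and oligodendrocyte genes were called in 21 of 27 (77.8%), CAST higher in 11 and C57 in 10, among them Ugt8a, of galactolipid synthesis, at 0.31 ± 0.01 and Trf, transferrin, at -0.40 ± 0.02.

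Microglia and complement genes were called in 19 of 21 single-copy members (90.5%), the highest share of the 24 lists, CAST higher in 7 and C57 in 12, with a median log2 ratio of -0.25. Apart from C3, Selplg, a ligand of selectins, was at -1.07 ± 0.06, with 41, 58.0 and 96 CAST reads, against 99, 131.0 and 198 C57 reads. Ctss, a cysteine protease of antigen processing, was at -0.64 ± 0.05, and Fcrls, a scavenger receptor gene of microglia, at 0.52 ± 0.03. Endothelial and mural genes were called in 11 of 17 (64.7%), CAST higher in 3 and C57 in 8. Rgs5, of pericytes, had 296, 368.5 and 580 CAST reads, against 625, 884.5 and 1420 C57 reads, a log2 ratio of -1.21 ± 0.02. Vtn, vitronectin, was at -0.84 ± 0.05, Kdr, a receptor for vascular growth factor, at -0.53 ± 0.07 and Slco1a4, a transporter of the blood-brain barrier, at -0.29 ± 0.03.

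Genes of the major histocompatibility complex and antigen presentation were called in 8 of 11 single-copy members (72.7%, against 56.4% of all single-copy genes), CAST higher in 6 and C57 in 2. H2-T24, a nonclassical class I gene, had 3, 6.0 and 15 CAST reads, against 21, 31.0 and 71 C57 reads, a log2 ratio of -2.45 ± 0.14. B2m, the light chain of class I molecules, was at 0.24 ± 0.02, and Pdia3, of peptide loading, at 0.16 ± 0.02. Interferon and innate immune genes were called in 13 of 19 (68.4%), CAST higher in 4 and C57 in 9. Ifit2, which is induced by interferon, was at -1.35 ± 0.08 and Irf3, a transcription factor of the interferon response, at -0.68 ± 0.06. Gbp3, a guanylate-binding protein, was at 1.14 ± 0.06 and Ifi27 at 0.81 ± 0.07.

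Glutathione and detoxification genes were called in 27 of 32 single-copy members (84.4%), CAST higher in 12 and C57 in 15. Pon2, a lactonase that is also on the list of imprinted genes, had 8, 11 and 18 CAST reads, against 160, 207.5 and 319 C57 reads. Its log2 ratio of -4.24 ± 0.08 was alike in F1i at -4.21 and F1r at -4.28. Aldh1a1, which makes retinoic acid, was at -0.96 ± 0.02, Cyp2d22, a cytochrome P450, at 0.92 ± 0.03 and Glo1, glyoxalase, with CAST shares between 66.0% and 73.7%, and each of these 3 has at least 20% of its coding words shared. Lysosomal genes were called in 32 of 38 (84.2%), CAST higher in 15 and C57 in 17. Tpp1, a peptidase, was at -0.87 ± 0.04, Gusb, a glucuronidase, at -0.78 ± 0.05, Gaa, which breaks down glycogen, at -0.33 ± 0.02 and Ctsb, a cathepsin, at 0.28 ± 0.02.

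Cholesterol synthesis genes were called in 14 of 18 (77.8%), CAST higher in 7 and C57 in 7, although they act in a single pathway. Pmvk, of the mevalonate steps, was at -1.10 ± 0.03 and Sc5d, a late-step desaturase, at -0.66 ± 0.03. Dhcr7, the last enzyme of 1 branch, was at 1.15 ± 0.08, with 178, 238.5 and 402 CAST reads, against 77, 103.0 and 206 C57 reads. The CAST share of Dhcr7 varied widely between animals, from 55.2% to 77.9%, with a standard deviation of 8.06 percentage points. Fdft1, squalene synthase, was at 0.68 ± 0.04, with 56.2% of coding words shared. Nuclear genes of oxidative phosphorylation were called in 32 of 42 (76.2%), CAST higher in 18 and C57 in 14, and 10 of the 42 have 20% or more of their coding words shared. The 4 named by the smallest p were all among those 10: Cox6c at -1.15 ± 0.04, Ndufa4 at 0.61 ± 0.03, Ndufb3 at -0.64 ± 0.04 and Ndufc1 at 0.46 ± 0.02. Cytosolic ribosomal protein genes were mostly multi-copy, with 11 of 42 left in the single-copy set, of which 8 were called, CAST higher in 3 and C57 in 5. Of these 11, 9 have 20% or more of their coding words shared. The called genes included Rps19, Rps15a, Rpl22 at -0.32 ± 0.03 with 67.5% shared and Rps20 at 0.64 ± 0.08 with 97.6% shared.

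The remaining lists had shares called between 9.09% and 57.6%. Immediate early genes were called in 1 of 11 (9.09%), which was Junb at 0.37 ± 0.16 (edgeR adjusted p = 0.0404). It had a mean of only 24 reads, and its call was lost without F1i animal 2, 4, 6 or 7 or F1r animal 3, 4, 5, 6 or 7, with log2 ratios between 0.31 and 0.38. The lists differ in depth, and the share of genes called rises with depth. Axon guidance genes were called in 16 of 46 (34.8%), CAST higher in 7 and C57 in 9, with Sema3c at 0.39 ± 0.05, Sema3d at -0.33 ± 0.05, Sema5a at 0.21 ± 0.02 and Neo1 at 0.19 ± 0.04. Circadian clock genes were called in 7 of 18 (38.9%), CAST higher in 4 and C57 in 3, among them the receptor gene Rorb at 0.73 ± 0.08, Dbp at 0.39 ± 0.06, Tef at -0.13 ± 0.02 and Nr1d2 at -0.12 ± 0.03. Nr1d2 has 37.0% of its coding words shared, and its call was lost in F1r alone, at -0.09 (edgeR adjusted p = 0.139), and with no animal term. Cadherins and protocadherins were called in 19 of 33 (57.6%), CAST higher in 12 and C57 in 7, with Dchs1 at 0.71 ± 0.06, Cdh13 at 0.34 ± 0.02, Cdh8 at 0.22 ± 0.03 and Fat3 at -0.23 ± 0.03. Zinc finger genes with Zfp symbols were called in 130 of 252 (51.6%), CAST higher in 70 and C57 in 60, with Zfp266 at 0.55 ± 0.03, Zfp239 at 0.53 ± 0.03, Zfp24 at -0.48 ± 0.03 and Zfp422 at -0.99 ± 0.06, the last with 53.0% of coding words shared.

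**Figure D3:**
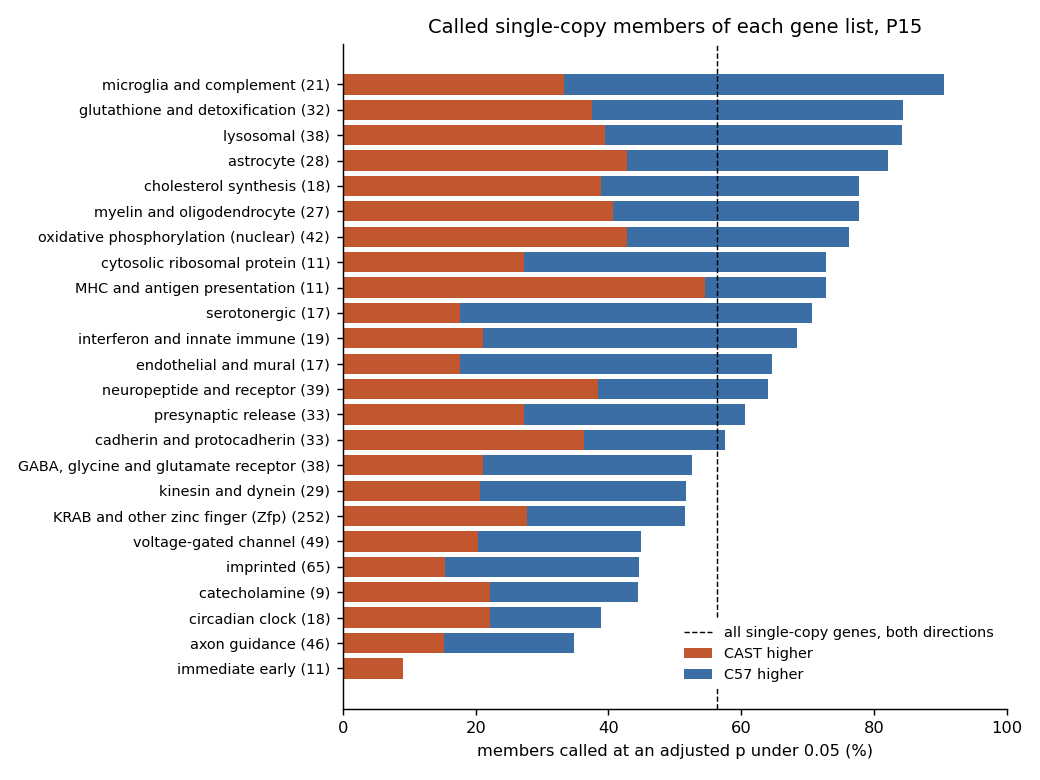
Share of single-copy members of each list called at an edgeR adjusted p of 0.05, split into CAST higher and C57 higher, with the number of members in parentheses. The dashed line is the 56.4% called over all single-copy genes; the microglia and complement list is highest at 90.5% and the immediate early list lowest at 9.09%.

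The 2 crosses share no animal and gave similar ratios outside imprinted genes. In F1i alone 4914 single-copy genes were called (45.2%), and in F1r alone 4734 (43.5%). Both crosses called 3849, of which 3799 had the same sign and 50 the opposite sign. The shared calls of the same sign are 77.3% of the F1i calls and 80.3% of the F1r calls. Of the 50 genes of opposite sign, 43 were on the list of imprinted genes, a class known for use of an allele by its parent of origin. Across the 10880 genes, which are no independent replicates, Pearson's r between the crosses was 0.31, and without the imprinted list it was 0.89. Of the 285 genes that differed by 1 log2 unit or more, 282 were called in both crosses with the same sign. Those genes were chosen by the average over these same animals, so this count is no separate test of the crosses. A parental effect was called for 64 single-copy genes (0.588%). The average over crosses is no strain effect for a gene whose ratio turns over between them. Of the 65 genes of the imprinted list, 44.6% were called, 10 with CAST and 19 with C57 higher, against 56.4% of all single-copy genes. Qpct at 0.57 ± 0.03, like Pon2 and Dhcr7, was a listed gene with the same direction in both crosses, at 0.52 in F1i and 0.62 in F1r, and no parental effect was called for these 3.

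**Figure D4:**
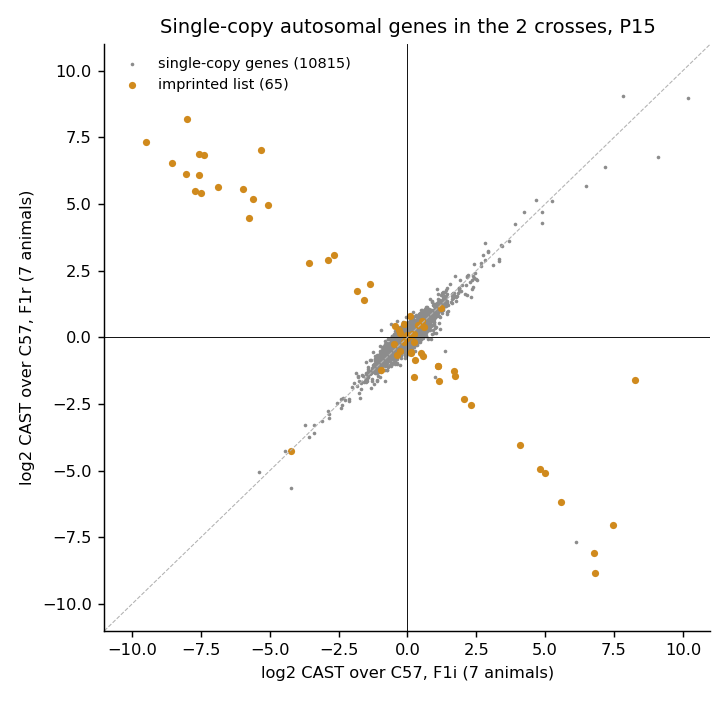
Log2 CAST over C57 ratio of each single-copy autosomal gene in the 7 F1i animals (horizontal) and the 7 F1r animals (vertical), with the 65 listed imprinted genes in orange. Most genes lie along the dashed line of equal ratios, and many imprinted genes lie across it where the crosses have opposite signs.

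Multi-copy genes and pseudogenes are given apart. Of 421 multi-copy genes, 305 were called (72.45%, against 56.4% of single-copy genes), CAST higher in 182 and C57 in 123. A difference of 1 log2 unit or more was reached by 92 (21.9%, against 2.62% of single-copy genes). Gapdh had 20, 29.5 and 61 CAST reads, against 738, 1264.5 and 2380 C57 reads, a log2 ratio of -5.35 ± 0.04. Psmd2, of the proteasome, was at -3.44 ± 0.11, Hmgb1, a chromatin protein, at -3.19 ± 0.11 and Vcp, an ATPase of protein turnover, at -2.46 ± 0.05. Rpl23a, a ribosomal protein, had 506, 622.0 and 931 CAST reads, against 5, 9.5 and 19 C57 reads, a log2 ratio of 6.04 ± 0.06. For 3 further multi-copy genes C57 reads were nearly absent over the 14 animals: Rps12 had 7372 CAST and 3 C57 reads, AK157302 had 6608 and 3, and Tpm3-rs7 had 2645 and 7. Of their transcript words, 25.8% for Rps12, 79.5% for AK157302 and 82.5% for Tpm3-rs7 are shared with other genes. Within the shared stretches of multi-copy genes, the reference sequence cannot tell reads of a copy elsewhere apart from reads of the gene.

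Of 61 pseudogenes, 54 were called (88.5%, against 57.1% of all autosomal genes), CAST higher in 50 and C57 in 4. CAST was thus higher in 92.6% of the calls, against 50.4% over all autosomal genes. A pooled CAST share of 99% or more was found in 36 of them, and a share between 25% and 75% in 20. No C57 read at all was counted for 14 pseudogenes, whose CAST reads over 14 animals ran between 362 and 1444. Gm14038 was the most read of these, at 1444 CAST and 0 C57 reads, so that CAST was at least 481-fold higher against a floor of 3 reads over the group. Cbx3-ps7 had 1735 CAST reads and 1 C57 read, and Gm5436 had 8222 and 14. For 31 pseudogenes the gene sharing the most words was also tested, and in 22 of these pairs both were called. The pseudogene was CAST higher in all 22, as in 50 of the 54 called pseudogenes. Its partner was CAST higher in 14 and C57 higher in 8. Not every partner is a close copy: among the 8 are those of Ccnb2-ps and Gm12021, which share only 4.27% and 12.8% of their words with other genes.

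A group of 3 pseudogenes on chromosome 2 shares 20% or more of its words with mitochondrial transcripts and carried many reads. Gm13340, named after its values were seen, had 716778 CAST and 287 C57 reads over 14 animals, and Gm13341 had 169361 and 150. These reads came almost wholly from F1i. Gm13341 had 18759, 23645.0 and 28634 CAST reads (lowest, median and highest of 7) in F1i animals, against 17, 35.0 and 85 in F1r animals, and at most 40 C57 reads in any animal. Gm13340 had 74417, 107786.0 and 123671 CAST reads in F1i animals, against 76, 118.0 and 395 in F1r animals, and Gm13339 likewise 5830, 7582.0 and 9553, against 8, 10 and 27. For all 3 genes the F1i and F1r animals did not overlap; mitochondrial DNA is inherited through the mother, and none of the counted genes that the annotation names is mitochondrial. The part of mitochondrial RNA in these counts was not tested. Together the 3 pseudogenes made up 2.56% of all autosomal CAST reads and 0.0014% of autosomal C57 reads. Not counted in these shares is Gm11410 on chromosome 4, which has 12.6% mitochondrial words and so lies under the limit of 20%. It had 110774 CAST and 56 C57 reads over 14 animals. Over all autosomal genes the CAST share was between 51.3% and 51.5% in F1i and between 49.9% and 50.0% in F1r.

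Words of the coding sequence were also counted, a measure added after the data were seen. Over all autosomal genes with a coding sequence, pseudogenes left out, 2.51% of 7400 with no shared coding words differed by 1 log2 unit or more. The share was 1.44% of 2156 genes with under 5% shared and 2.65% of 567 with 5% to 20%. It was 7.16% of 475 with 20% to 50% shared and 18.1% of 448 with 50% or more. Depth was not matched: the median gene had 141 reads per animal in the last group and 202 with no words shared. In the single-copy set, 515 genes had 20% or more of their coding words shared, and 340 of those were called, 26 at 1 log2 unit or more. Without them 10365 single-copy genes remained, with 5791 called, CAST higher in 2885 and C57 in 2906, and 259 at 1 log2 unit or more. By annotated type, 22% of 50 long intergenic RNAs differed by 1 log2 unit or more, against 2.41% of 10626 protein-coding genes in the single-copy set. Along the chromosomes the share of single-copy genes called ran between 52.1% on chromosome 19 and 61.7% on chromosome 3, and the CAST-higher share of calls between 44.7% on chromosome 14 and 55.7% on chromosome 12.

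The ratios were next set beside those at P5 and in adults in a model of all 46 samples. The 18 adult samples carry 2 numbers each, with 3 samples under each of 6 first numbers, and whether samples of the same first number share an animal is not given in the sources used here. The ratio at P15 differed from that at P5 in 2148 of 10853 single-copy genes tested (19.8%) and from that in adults in 1757 (16.2%), at an edgeR adjusted p of 0.05. With the adult samples of the same first number added up, which leaves 6 sums, 1690 genes differed from adults (15.6%), and 1659 of them were also called, with the same sign, with each sample taken singly. Such differences reached 1 log2 unit for 41 genes against P5 and 19 against adults. Of the 282 genes with a large ratio at P15 that were tested, 104 differed from P5 and 102 from adults, and 279 and 282 had the same sign at those ages. Those genes were chosen by their ratio in these same P15 animals, so these counts are no separate test of the ages. The named genes below were also chosen by their P15 ratios or p-values.

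Among named genes, C3 was at 2.66 ± 0.16 at P5, 4.91 ± 0.09 at P15 and 4.11 ± 0.09 in adults (log2 CAST over C57, SE). Tusc3 was highest at P15, with 2.81 ± 0.06 at P5, 4.46 ± 0.10 at P15 and 2.04 ± 0.05 in adults. Dhcr7 was also highest at P15, with 0.14 ± 0.05 at P5, 1.15 ± 0.08 at P15 and 0.24 ± 0.05 in adults. Pttg1 moved further to C57 with age, at -1.35 ± 0.04, -2.93 ± 0.06 and -3.59 ± 0.04 at P5, P15 and in adults. Clu was at 0.26 ± 0.03, 0.78 ± 0.02 and 0.16 ± 0.02, and Fcrls at 0.17 ± 0.04, 0.52 ± 0.03 and 1.38 ± 0.04. Tph2 was near equality at P5, at -0.01 ± 0.03, and lay at -0.18 ± 0.02 at P15 and -0.27 ± 0.01 in adults. Kif3a had the opposite sign in adults, at 0.02 ± 0.01, 0.14 ± 0.02 and -0.17 ± 0.01. The make-up of cells in the tissue at each age, and its part in these differences, was not tested.

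**Figure D5:**
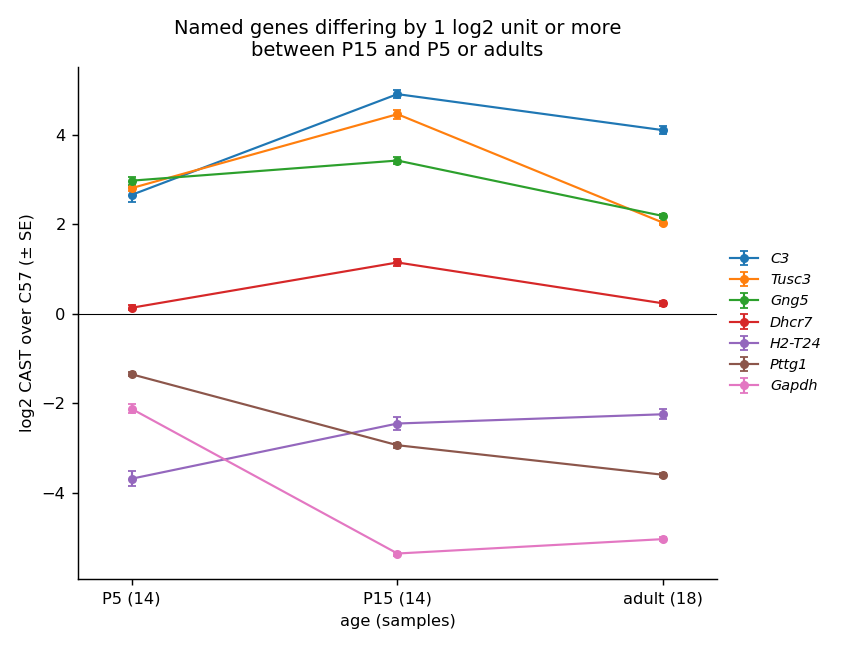
Log2 CAST over C57 ratio (± SE) at P5, P15 and in adults for the named genes that differ by 1 log2 unit or more between P15 and another age, genes with almost no reads of an allele left out. C3, Tusc3 and Dhcr7 peak at P15, and Gapdh, a multi-copy gene, lies at -2.12 at P5 and -5.35 at P15.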

How the data were processed

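Libraries of dorsal raphe RNA were made with a TruSeq kit and read as single 50-base ends, per the labels' protocols. Novoalign and the mm9 build are named in the submitters' processing notes. The deposited values are whole-number read counts per gene and allele, summed per gene by the authors in 3 tables, 1 for each age. How reads were assigned to an allele, placed among copies and counted by strand is not given in the sources used here. All 92 columns used were matched to samples by name. The labels number the samples without saying that each is an animal; they are called animals here at P5 and P15, and p-values measure the spread between these samples. Adult samples may share animals, as their names carry 2 numbers.

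Genes were named by Ensembl identifier from GENCODE M21, which gave a name to 14969 of 15499 genes, and no coordinate of it was used with the mm9 counts. The edgeR quasi-likelihood test (edgeR 4.0.16, R 4.3.3) had a term for each animal, allele within cross, and the animal's total of both alleles as library size. The log2 CAST over C57 ratio is the mean of both crosses, and the parental effect is their difference divided by 2. An SE is the size of the ratio divided by the square root of the test's F statistic. For strongly unequal genes it can understate the error, down to less than counting error alone. Adjustment was by Benjamini and Hochberg over the 11996 genes that had at least 20 reads per animal on average. Of these, 391 X-linked genes are summed up in the closing section and 243 unplaced genes are not described. Scripts were tested on simulated data. Alternatives were TMM scaling, DESeq2 1.42.0, limma 3.58.1 on log2 ratios with a prior count of 1, other count limits, no animal term, each cross alone, each animal left out and, chosen after seeing the data, adult samples of the same first number added up. Ratios at P5 and in adults come from 1 model of all 46 samples.

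Named genes are the 15 single-copy genes with the largest ratio in each direction (called, 100 or more reads, same direction in all 14 animals, not imprinted), up to 4 called genes of each of 24 lists by p, the 4 largest multi-copy genes and pseudogenes in each direction, and the 10 most read single-copy genes outside the imprinted list. Some items the rule names are not reported here. Members and lists were chosen with earlier results of these data known. Fitted ratios of genes with almost no reads of an allele depend on the prior count and are not given. Counting error is the only error that depth shows, since reads carry no molecular identifiers.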

Additional observations from a re-analysis of the deposited data

Results flagged for a closer look

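In 11 sets of 7 animals of a cross, among 267 sets with any spread over the 136 named genes, the CAST share of a single animal stood apart from the other 6. Chance alone flags about 1 in 20 such sets, or 13.4 of 267. C3 stood at 92.4% in F1i animal 6, with the others between 96.1% and 97.8%. Sfi1 was at 84.4% in F1i animal 2 and Fcrls at 62.5% in F1i animal 1. Shares that stood apart in F1r were those of Aldh1a1 at 36.3% in animal 3, Cacnb2 at 43.8% in animal 7, Pla2g4e at 85.2% in animal 5 and Slco1a4 at 47.6% in animal 5. In genes with C57 reads in few animals, 1 or 2 reads set the share apart. Rps12 had 1 C57 read in F1i animal 1, at 99.83%, and 2 in F1r animal 7, at 99.72%. In F1r animal 1, AK157302 had 2 C57 reads, at 99.3%, and Cbx3-ps7 had 1, at 98.7%.

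The allele ratio of some named genes differed between groups, by the test of the difference itself in edgeR. The P15 minus P5 difference of the log2 ratio was 2.26 for C3, 1.66 for Tusc3, 1.23 for H2-T24, 1.01 for Dhcr7, -1.59 for Pttg1 and -3.24 for Gapdh. The P15 minus adult difference was 2.44 for Tusc3 and 1.25 for Gng5. Named genes with under 14 reads of an allele over the 14 animals, 6 in all, were left out of this. Between the crosses, the parental effect of Ddc, a gene of the imprinted list, was 0.144.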

How the results depend on the processing

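No named gene changed sign at P15 under the alternatives run. The near balance of directions did turn over: 3038 genes with CAST and 3093 with C57 higher became 3314 and 3294 with no count filter, 2464 and 2450 in F1i alone and 2367 of each in F1r alone. The count of single-copy genes at 1 log2 unit or more moved from 285 to 649 with no count filter and to 112 with a mean of 100 or more reads, where fewer genes are tested. With no animal term, 4022 single-copy genes were called, CAST higher in 2008 and C57 in 2014. Leaving out each animal in turn gave 6248 to 6402 autosomal calls, 5901 to 6051 single-copy calls, 2909 to 2987 with CAST and 2992 to 3064 with C57 higher, and 282 to 292 at 1 log2 unit or more. DESeq2 called 5078 single-copy genes and limma 6023. TMM scaling of each allele column called 6110, of which CAST was higher in 48.4% against 49.6% as reported. The replicate block, with the animals of the same number in the 2 crosses paired, called 6102 single-copy genes; the correlations of paired deviations over 8019 genes ran between -0.031 and 0.092, so the numbers were not taken to pair animals. Over the 136 named genes a call was lost in 35 pairs of gene and setting and gained in 4, all 4 for Cpe; the genes that lost a call outside the fit with no animal term were Slc1a2, Th, Junb, Slc6a3 and Nr1d2. The cause was not tested. The age differences were recomputed only with the adult samples added up by first number, which gave 2181 against 2148 genes for P5 and 1690 against 1757 for adults. Single-copy genes with under 50 reads had a median standard error of 0.136, and the smallest ratio called among them was 0.253 in size, so smaller ones were not detectable there.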

Other observations

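X-linked genes were not among the autosomal genes described above. Of 391 tested at P15, 387 were called, CAST higher in 385 and C57 in 2, with a median log2 ratio of 1.15. All 14 animals were female.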
